A study of Homo sapiens with 2 samples.

Results

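The transcripts described here encode 10 proteins of mitosis and cell division, namely the kinases AURKA, AURKB, PLK1 and PLK4, the chromosomal passenger proteins INCENP and BIRC5, the spindle factor TPX2, and the cytokinesis proteins PRC1, ECT2 and ANLN. They were taken by exact gene symbol from the array annotation, and were read by 32 of the 49292 probe sets and made up 10 of the 18132 genes measured. RNA bound to QKI, an RNA-binding protein of the STAR family, was recovered by anti-QKI immunoprecipitation from SW480, an established line of human colorectal cancer, and hybridised to PrimeView arrays. One array held RNA of cells transfected with the negative control siRNA (siNC), and one held RNA of cells in which the long noncoding RNA NONHSAT136151 was silenced (siLnc). Both cultures received 100 pmol of siRNA with a Lipofectamine reagent and were collected after 48 h. There was 1 array per condition, so no difference below has a replicate check, no p-value was computed, and precision is limited by there being only 2 arrays.

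Entry into mitosis, spindle assembly and the final division of the cell are driven by a small set of kinases and their partners. Aurora A works at centrosomes and on the spindle, where TPX2 activates it. Aurora B acts in the chromosomal passenger complex with INCENP, survivin (the product of BIRC5) and borealin (CDCA8), and moves from centromeres to the spindle midzone at anaphase. PLK1 acts at centrosomes, kinetochores and the midzone, whereas PLK4 starts the duplication of centrioles. After the chromosomes separate, PRC1 bundles the midzone microtubules, ECT2 activates the GTPase RhoA at the cell equator, and anillin (ANLN) ties the contractile ring to the membrane. Transcripts of most of these genes rise toward mitosis in cycling cells, and several are highly expressed in colorectal tumours.

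The only agents that set the arrays apart by design were the siRNAs, so their sequences are shown as the supplement of the study lists them, 5′ to 3′ and with every base in capitals.
si-NON-1: UAGGCAUGGUUAGCGUGGUCGGAAUTT
si-NC: TTCTTACACAATAGCCAGG
The supplement gives a further siRNA against the transcript, si-NON-2, with a sequence identical to that of si-NC. The sources used here do not say which siRNA preceded the precipitation, and no probe set carried the name NONHSAT136151, so the knockdown was not checked on these arrays.

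Mitotic genes often share promoter elements that couple them to the cell cycle, chief among them the CHR element (TTTGAA, or TTCAAA on the other strand) and the CCAAT box (CCAAT, or ATTGG on the other strand). RefSeq promoter sequences were given for 7 of the 10 genes (AURKB, PLK1, PLK4, INCENP, ECT2, ANLN and PRC1), with 11 annotated starts in all. The 80 bases before the start are printed, 5′ to 3′ on the gene's strand, for those that held either element. The elements are in capitals and show which of them each start held.
PLK1, chr16:23678809-23678888 (GRCh38.p14, + strand): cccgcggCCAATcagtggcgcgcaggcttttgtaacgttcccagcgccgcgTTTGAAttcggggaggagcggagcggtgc
INCENP, chr11:62123931-62124010 (+ strand): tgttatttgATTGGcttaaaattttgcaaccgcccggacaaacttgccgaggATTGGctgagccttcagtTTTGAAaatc
PRC1, chr15:90994536-90994615 (- strand): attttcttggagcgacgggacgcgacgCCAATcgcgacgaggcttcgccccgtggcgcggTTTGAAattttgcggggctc
ANLN, chr7:36389782-36389861 (+ strand): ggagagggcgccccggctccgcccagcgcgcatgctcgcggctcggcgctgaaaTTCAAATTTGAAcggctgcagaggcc
ECT2, chr3:172750646-172750725 (+ strand): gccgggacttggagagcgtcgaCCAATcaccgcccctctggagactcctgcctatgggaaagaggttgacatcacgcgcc
The CHR letters stood in this window at 4 of the 11 starts and the CCAAT letters at 4, and 3 starts held both. Of all 35116 starts in the table, 3.57% held the CHR letters, 14.7% the CCAAT letters and 0.601% both within the same 80 bases. PLK1, which had the smallest mean difference between the arrays, held both elements. PRC1 and INCENP also held both, and the signal of INCENP was too low for a difference to be read. ANLN, with one of the largest differences, held the CHR letters on both strands. A match is a description of the letters only.

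In the QKI precipitate of siLnc cells, 10 of the 10 genes had a mean log2 difference (siLnc minus siNC, averaged over the probe sets of a gene) above 0, against 39.2% of all genes. The genes were chosen with earlier results of these arrays known, so comparisons with all genes describe them and are no independent support. Counting only probe sets above 4.17 (the level of markers of absent cell types) on at least 1 array, 8 genes lay above 0, PLK1 was at 0 and INCENP had none. The differences ran from 0.03 for PLK1 to 1.01 for ECT2, with a median of 0.44, a 1.35-fold higher signal, while the median over all 18132 genes was -0.06. ECT2 was the single gene past 2-fold (0.651% of all genes were), and fell short of it after cyclic loess (0.93), quantile normalization (0.89) or subtraction of the median of probe sets of like signal (0.94) and by its brighter probe set alone (0.97). ECT2, ANLN and TPX2 were the 3 genes past 1.5-fold (4.26% of all genes). None was 2-fold lower (0.121% of all genes). Of the 32 probe sets, 25 lay above 0, 5 were at exactly 0 and 2 lay below, where 41.1% of all probe sets lay above 0 and 9.07% at exactly 0. Of the 32, 2 were at least 2-fold higher, against 1.51% of all probe sets. Since input RNA and IgG precipitates were not analysed here, more mRNA bound per QKI protein, a larger total amount of the mRNA and a larger share of cells near mitosis cannot be told apart.

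The signal of a probe set limits what its difference can show. Markers of cell types absent from the culture, 53 genes read by 135 probe sets, had a median log2 signal of 2.09 in siNC, and 95% of them lay below 4.17. Of the member probe sets, 20 lay above 4.17 in siNC, 2 lay above it in siLnc alone, and 10 lay below it on both arrays. Above 4.17 in siNC, 18 of the 20 were higher in siLnc, with a median difference of 0.66, against 57.2% higher and a median of 0.09 over all 19086 such probe sets. The 12 member probe sets below it had a median difference of 0.13. INCENP was the gene with no probe set above this level on either array.

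**Figure D1:**
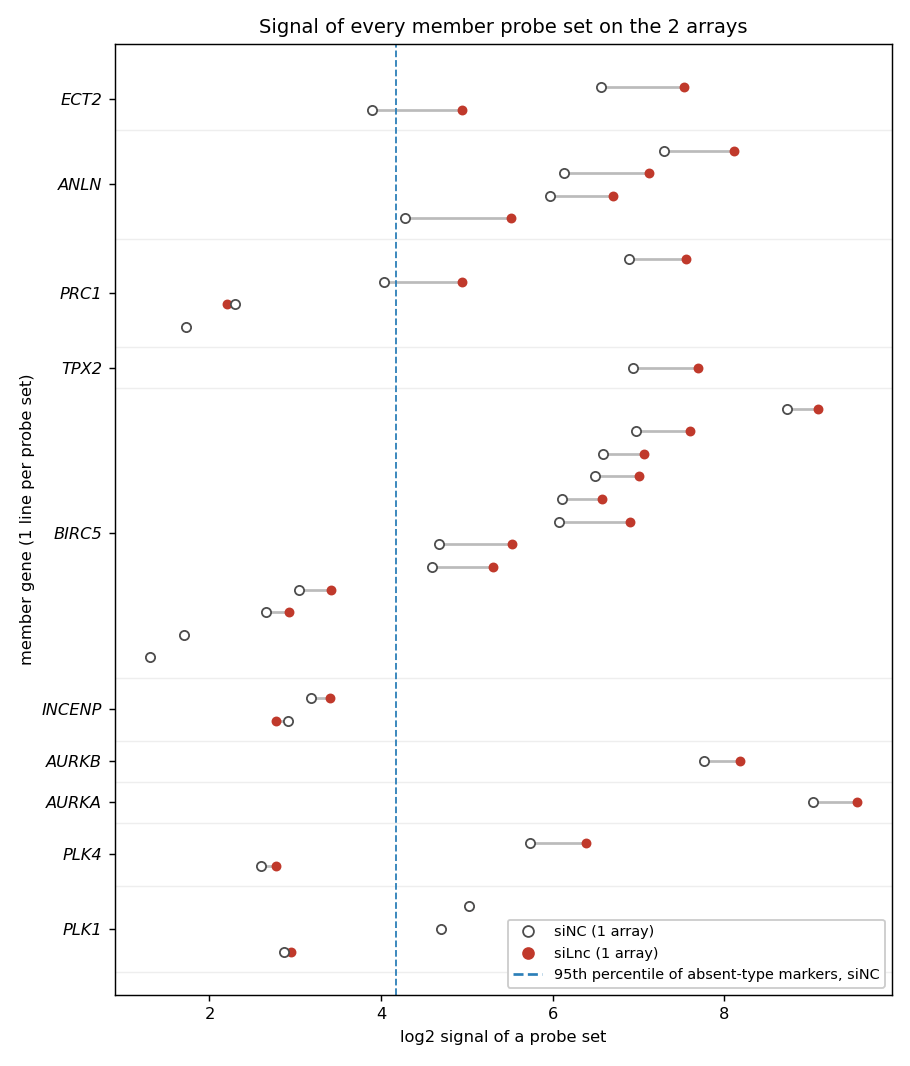
Log2 signal (x axis) of each of the 32 member probe sets, 1 line per probe set and grouped by gene, with open circles for the siNC array, filled circles for the siLnc array and a dashed line at 4.17, the 95th percentile of markers of absent cell types in siNC. The filled circles lie to the right in 25 probe sets, 5 pairs coincide (only the open circle is seen), and both INCENP pairs lie left of the line.

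Among the cytokinesis genes, ECT2 and ANLN had the largest differences of the 10. ECT2 encodes the guanine nucleotide exchange factor that loads RhoA at the equatorial cortex. Its brighter probe set read 6.56 in siNC and 7.53 in siLnc on the log2 scale, and its dimmer probe set read 3.90 and 4.94. The log2 differences of 0.97 and 1.04 averaged 1.01 ± 0.05 (SD over n = 2 probe sets), the 111th highest of 18132 genes. The 2 readings therefore differed little from each other, although the dimmer one began below 4.17 in siNC. The brighter one was marked, by the suffix of its name, as cross-hybridising.

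ANLN encodes anillin, a scaffold that binds actin, myosin, septins and RhoA. Its 4 probe sets read 7.30, 6.13, 5.97 and 4.28 in siNC and 8.12, 7.12, 6.70 and 5.52 in siLnc. All 4 lay above 4.17 on both arrays and all 4 were higher in siLnc, by 0.82, 0.99, 0.73 and 1.24 on the log2 scale. The mean was 0.95 ± 0.22 (SD over n = 4 probe sets), which ranked 152nd, and the dimmest probe set was the one past 2-fold.

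PRC1, the microtubule bundler of the midzone, gave unlike readings in its 4 probe sets. The brightest, marked as cross-hybridising, read 6.89 in siNC and 7.55 in siLnc, a difference of 0.66. The next read 4.04 and 4.94, a difference of 0.90. The other 2 were dim on both arrays, at 2.30 and 2.20 (siNC and siLnc) and at 1.73 and 1.73. The mean of 0.37 ± 0.49 (SD over n = 4 probe sets) thus combined 2 higher readings with 2 that lay well below the level of absent cell types, and over the 2 brighter probe sets it was 0.78, one of which passed 4.17 in siLnc alone.

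TPX2, which releases from importins near chromosomes, nucleates spindle microtubules and activates Aurora A, was read by 1 probe set. It read 6.94 on the log2 scale in siNC and 7.70 in siLnc. The difference of 0.76, a 1.69-fold higher signal, ranked 348th of all genes and lay above 94.2% of the 500 probe sets nearest in mean signal. This probe set was marked as cross-hybridising, and TPX2 had no second reading.

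Both Aurora kinases were higher in siLnc by less than 2-fold. AURKA, the kinase that TPX2 activates, read 9.03 in siNC and 9.55 in siLnc, a log2 difference of 0.52 (1.43-fold). AURKB, the catalytic subunit of the passenger complex, read 7.76 and 8.18, a difference of 0.42 (1.34-fold). Each was read by 1 probe set, so neither has a second reading. Among the 500 probe sets nearest in signal, 89.2% had a smaller difference than AURKA and 79.2% a smaller one than AURKB. RefSeq lists the pseudogenes AURKAP1 and AURKAP2 of AURKA and AURKBP1 of AURKB, and how far their sequences add to these probe sets was not tested.

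The polo-like kinases gave different readings. PLK4, the kinase that licenses centriole duplication, read 5.74 in siNC and 6.39 in siLnc in its brighter probe set, a log2 difference of 0.65, and 2.60 and 2.78 in its dimmer one, a difference of 0.18. The brighter reading lay above 86.4% of the 500 probe sets nearest in signal, whereas the dimmer one lay below 4.17 on both arrays. PLK1, the main polo-like kinase of mitotic entry, had the same value on both arrays in its brighter probe sets, 5.02 and 5.02 in one and 4.70 and 4.70 in the other. Its dimmest probe set read 2.87 and 2.95, and the mean difference was 0.03 ± 0.05 (SD over n = 3 probe sets). Of the 500 probe sets nearest in signal to each of the brighter pair, 4.2% and 3.8% had an exact 0, and 37.8% and 43.8% had a difference below 0.

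The dimmest PLK1 probe set (0.08) and the dimmer one of PLK4 (0.18) lay below 4.17 on both arrays. By the probe sets above 4.17, PLK1 stood apart from the other 3 kinases. Its differences there were 0.00, and those of AURKA, AURKB and PLK4 were 0.52, 0.42 and 0.65. Whether this gap exceeds the variation between arrays was not tested. PLK1 transcripts were above the level of absent cell types in 2 of 3 probe sets on both arrays.

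In the passenger complex, BIRC5 was higher and INCENP could not be read. BIRC5 encodes survivin, an inhibitor of apoptosis family protein that anchors the complex at centromeres. It was read by 12 probe sets, with log2 signals from 1.31 to 8.73 in siNC. The 8 above 4.17 in siNC were all higher in siLnc, by 0.36 to 0.85 with a median of 0.58, and the brightest (8.73 in siNC and 9.09 in siLnc) had the smallest of these differences. The 4 below 4.17 had differences of 0.00 to 0.38, and 2 of them were at exactly 0. The mean over all 12 was 0.46 ± 0.28 (SD over n = 12 probe sets). Probe sets of a gene read the same RNA on the same arrays, so this SD is no replicate error.

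INCENP, the scaffold that binds and activates Aurora B, read 3.18 in siNC and 3.40 in siLnc in one probe set and 2.92 and 2.78 in the other. The differences of 0.22 and -0.14 had opposite signs and a mean of 0.04 ± 0.25 (SD over n = 2 probe sets). Both probe sets lay below 4.17 on both arrays, so no direction is read from them. CDCA8, which encodes borealin, the remaining core subunit, had a log2 difference of 0.21 as the mean of 0.19 and 0.22, and its brighter probe set read 5.94 and 6.13. The differences of BIRC5 (0.46) and AURKB (0.42) were larger than that of CDCA8, and whether they differ beyond the variation between arrays was not tested.

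The difference between the arrays depended on signal over the whole array. The median difference of the 500 probe sets nearest in signal was 0.14 beside AURKA, 0.16 beside the brighter probe set of PLK4, -0.15 beside the dimmer one of INCENP and 0.00 beside the dimmer one of ECT2. Of the 32 member probe sets, 30 lay above the median of their neighbours, and the exceptions were the brighter pair of PLK1. After subtracting these medians, the mean log2 difference was 0.94 for ECT2, 0.79 for ANLN, 0.58 for TPX2, 0.41 for PLK4, 0.39 for BIRC5, 0.39 for PRC1, 0.38 for AURKA, 0.28 for AURKB, 0.17 for INCENP and 0.01 for PLK1. ECT2, ANLN and TPX2 remained the highest 3 on this scale.

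**Figure D2:**
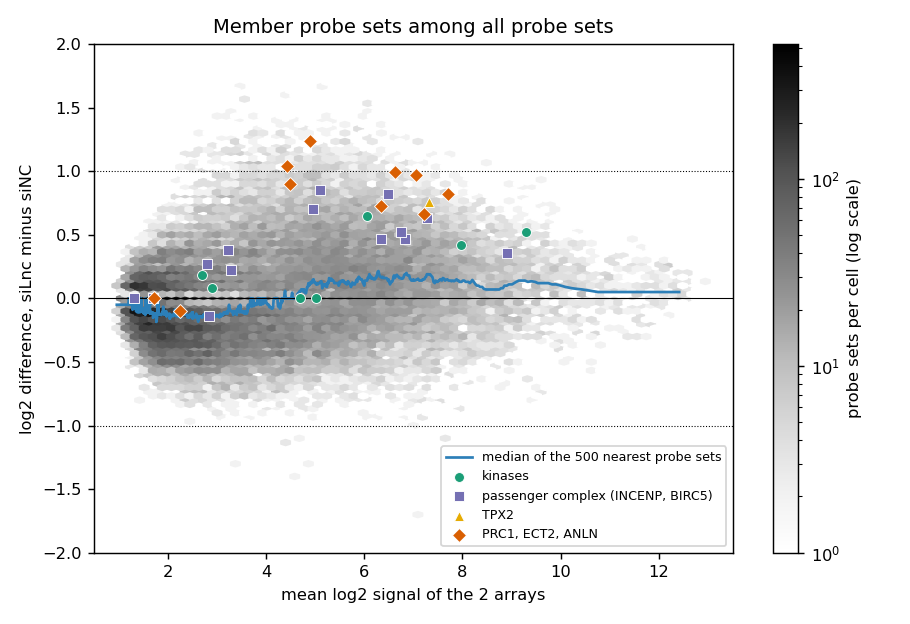
Log2 difference between siLnc and siNC (y axis) against the mean log2 signal of the 2 arrays (x axis) for all probe sets (grey, darker where more lie, 16 outside the plotted range) and for the member probe sets (coloured by role), with the median of the 500 nearest probe sets as a line and 2-fold as dotted lines. Member probe sets of higher signal lie mostly above the line, apart from those of PLK1 at 0.

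Genes that work with these proteins were described from lists drawn up for this comparison, each by its counts and median beside the median of -0.06 over all genes. The lists were chosen with earlier results of these arrays known. Of all genes, 39.2% lay above 0, and of all probe sets above 4.17 in siNC, 57.2% did. Partners of the passenger complex had a median log2 difference of 0.22, with 8 of 10 genes above 0 and none 2-fold higher or lower. The median was 0.48 over 8 genes with probe sets above 4.17 on at least 1 array, and 0.46 by the brightest probe set of each gene. Over all genes these settings gave medians of 0.08 and -0.06. Of the 8 genes, 6 had such a probe set in siNC and the rest in siLnc alone, so this filter itself favours higher differences. Kinases, cyclins and regulators of mitotic entry had a median of 0.28 over 24 genes, of which 20 lay above 0 and 1 was 2-fold higher. That gene was MASTL, the Greatwall kinase that restrains the phosphatase opposing CDK1, which read 4.94 in siNC and 5.96 in siLnc in its 1 probe set. CCNB1, encoding cyclin B1, read 7.78 and 8.65 (a difference of 0.87), whereas CDK1, its catalytic partner, had a mean difference of 0.32 from readings of 0.38, 0.58 and 0.00. The reading of 0.00 came from a CDK1 probe set at 1.48 on both arrays, below 4.17. BORA, the cofactor through which Aurora A activates PLK1, had 0.26 as a mean and 0.15 in the one probe set above 4.17.

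Genes of centriole duplication and the centrosome, among which PLK4 acts, had a median of 0.15 over 22 measured genes, with 19 above 0 and none 2-fold higher (1 by the brightest probe set or with dim probe sets left out). STIL and SASS6, which build the cartwheel of a new centriole with PLK4, had mean differences of 0.31 and 0.54. The brighter SASS6 probe set read 3.20 in siNC and 4.43 in siLnc, below 4.17 in siNC, and the other read 1.28 and 1.13, so the size of the SASS6 value is not exact. CEP192 and CEP152, the centriolar receptors of PLK4, had 0.22 and 0.49, the latter from 1 probe set at 3.34 and 3.83. The CEP192 mean combined 0.43 in a probe set above 4.17 with 0.00 in one at 1.55 on both arrays.

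Genes of spindle assembly and the Ran pathway, in which TPX2 acts, had a median of 0.57 over 26 measured genes, with 24 above 0. By the brightest probe set of each gene it was 0.45, so the order of the lists depended on how probe sets were combined. KIF2A, a kinesin that depolymerises microtubules, was 2-fold higher, with a mean of 1.04 over 3 probe sets (0.93 to 1.13), 1 of which lay above 4.17 in siNC. KIFC1, a minus-end motor, read 4.0 and 5.0 in its 1 probe set, below 4.17 in siNC. HMMR, a spindle protein that helps to place TPX2, had a mean of 0.75 over 4 probe sets, all above 4.17 and all higher (0.45 to 1.22), and the spindle motor KIF11 had 0.56 over 2. TACC3, a substrate of Aurora A, had 0.31 over 6 probe sets, of which the lowest was at -0.22, the highest at 0.79 and the one above 4.17 in siNC at 0.35.

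**Figure D3:**
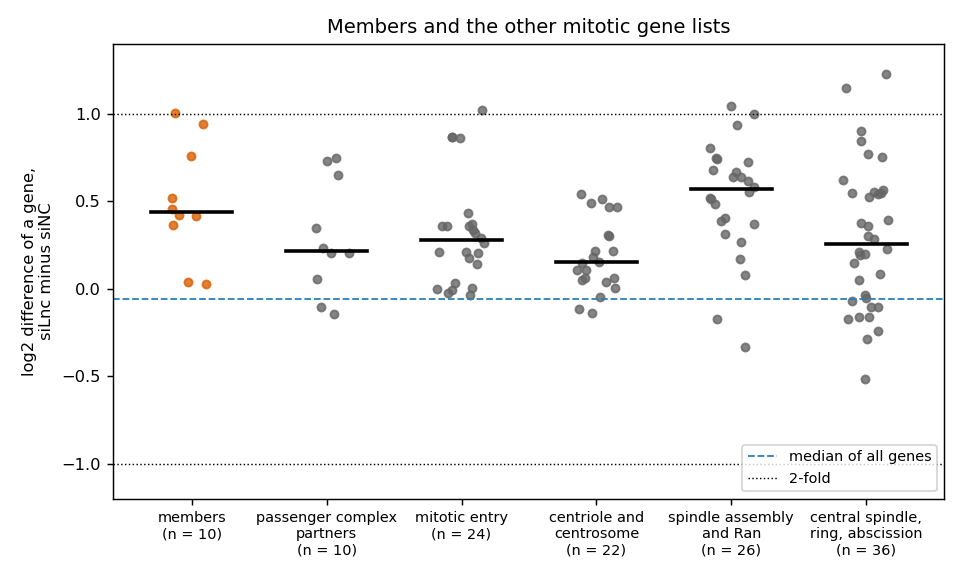
Log2 difference of each measured gene (y axis, siLnc minus siNC, mean over its probe sets) in the 10 members and in 5 lists of related genes, with the median of each list as a black bar, the median of all genes as a dashed line at -0.06 and 2-fold as dotted lines. The median bars run from 0.15 for centriole and centrosome genes to 0.57 for spindle assembly genes, and the members lie at 0.44.

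The list of central spindle, contractile ring and abscission genes, which surrounds PRC1, ECT2 and ANLN, had a median of 0.26 over 36 measured genes, with 25 above 0 and 11 below. The 2 genes past 2-fold, RACGAP1 and MYH10, encode proteins of the midzone and the contractile ring. RACGAP1, the subunit of centralspindlin that recruits ECT2 to the midzone, read 6.29, 4.86 and 3.76 in siNC and 7.23, 5.78 and 5.35 in siLnc. Its mean difference was 1.15, the 47th highest of all genes, although its 2 brighter probe sets had 0.94 and 0.92 and the dimmest (1.59) began below 4.17. MYH10, the heavy chain of non-muscle myosin IIB, had a mean of 1.23 from probe sets at 1.84, 1.34 and 0.51, of which the first read 6.39 and 8.23 and the others lay below 4.17 on both arrays.

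Other genes of the midzone had smaller differences. KIF23, the motor subunit of centralspindlin, had a mean of 0.38 (0.30 and 0.45), KIF20A, which carries the passenger complex to the midzone, had 0.55 in 1 probe set, KIF4A, a partner of PRC1, had 0.20 (0.39 and 0.00), and CIT, encoding citron kinase, had 0.30 (0.47 and 0.13). In KIF23, KIF4A and CIT the second of these readings came from a probe set below 4.17 on both arrays. Transcripts of the abscission machinery lay on both sides of 0. By a division of the list made after the values were seen, the 6 measured CHMP subunits of the membrane-cutting ESCRT-III complex had mean differences between -0.29 and -0.04. Their mean signals in siNC ran from 4.33 (CHMP6) to 9.47 (CHMP2A). The mean of CHMP6 combined readings of -0.37 and 0.30, and that of CHMP4A combined -0.15 and 0.01. Of all genes, 39.2% lay above 0. The median difference was -0.06 over all genes but 0.09 over all probe sets above 4.17 in siNC. The 12 ESCRT and abscission genes together had a median of -0.05. CEP55, which recruits ESCRT proteins to the midbody, had 0.29 (0.08 in its brighter probe set and 0.49 in the other). TSG101, of ESCRT-I, had 0.75. The 18 genes of centralspindlin, furrow signalling and the ring had a median of 0.37, from -0.52 for MYL9, a myosin light chain, to 1.23 for MYH10.

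**Figure D4:**
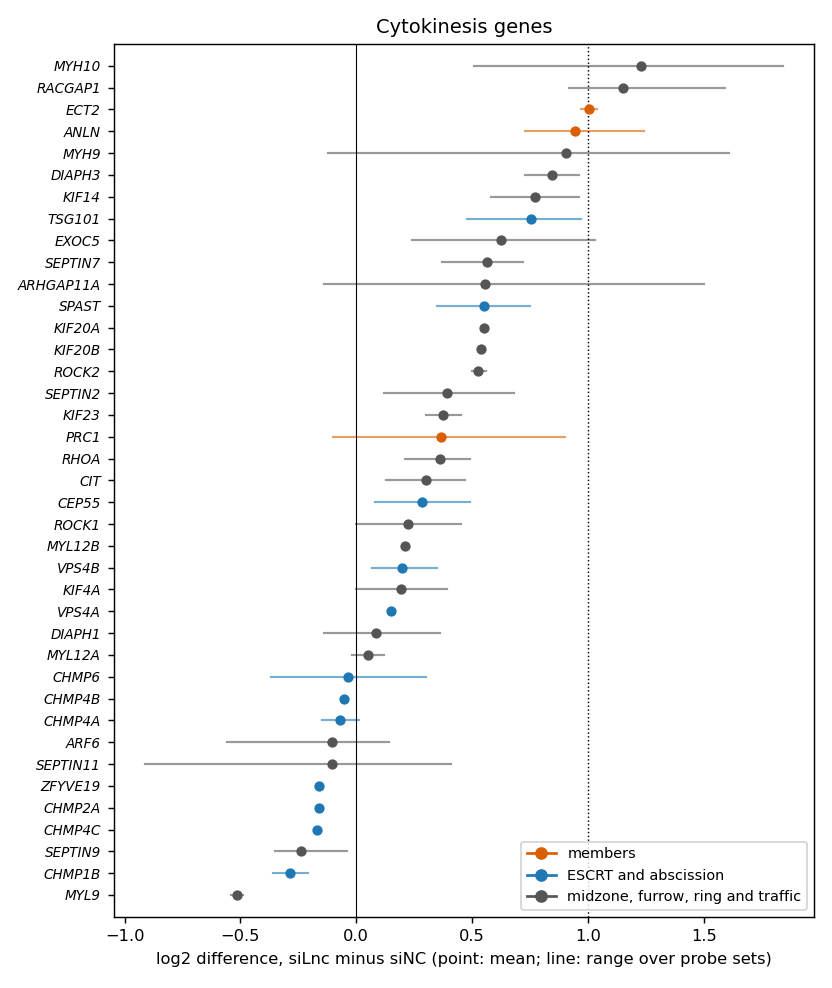
Log2 difference (x axis, siLnc minus siNC) of 36 genes of the central spindle, contractile ring and abscission and of the members PRC1, ECT2 and ANLN, sorted by the mean (points), with the range over probe sets as lines and 2-fold as a dotted line. MYH10, RACGAP1, ECT2 and ANLN lie at the top, between 0.95 and 1.23, and the CHMP genes lie at or below -0.04.

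Facts of the arrays bear on all of these values. The 18 hybridization control probe sets, bacterial and phage transcripts spiked into the hybridisation mix, were lower in siLnc in 18 of 18, with log2 differences from -1.30 to -0.20, and the control probe sets of GAPDH were higher by 0.47 at the 5′ end and 0.19 at the 3′ end, those of ACTB by 0.34 and 0.05. Markers of colorectal epithelium had a median difference of -0.09 over 18 genes, 11 of which had a probe set above 4.17 in siNC, including EPCAM, KRT8, KRT18 and KRT19, while LGR5, CEACAM5 and LGALS4 were not above it. CDX2 (7.17 in siNC and 6.22 in siLnc) and ASCL2 (7.63 and 6.71) were lower by 0.95 and 0.92, ranking 18106th and 18102nd of 18132 genes. Of 24 measured gland and blood markers, a list drawn up with earlier results of these arrays known, 12 were at least 2-fold higher in siLnc, and their summed linear signal was 233 in siNC and 2412 in siLnc. These 12 held ranks 1 to 12 of all genes, led by BPIFA1 (3.26 in siNC and 10.09 in siLnc) and STATH (1.88 and 8.14), while the salivary transcripts HTN1 (1.58 and 1.29) and MUC7 (1.55 and 1.61) stayed below 4.17. QKI mRNA was lower in siLnc by the mean of its 6 probe sets (log2 difference -0.57, from -1.26 to 0.00), and the difference was -0.26 without the probe sets marked as cross-hybridising. The probe sets so marked included the brightest (10.06 in siNC and 9.41 in siLnc, -0.65) and the next (9.88 and 9.17, -0.71). The part of these features in the differences of the 10 genes was not tested.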

How the data were processed

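RNA immunoprecipitated with an anti-QKI antibody from siNC and siLnc SW480 cells was measured on 2 PrimeView arrays. For every probe set the authors deposited a log2 signal on each array, rounded to 2 decimals, and this scale was inferred from the range of values. The submitters' processing notes name GCOS, but how signals were background-corrected, summarised and normalized is not stated there or in the study's methods. Of 49371 probe sets, 79 controls were left out. Probe sets were named by the platform annotation, with 44988 carrying 1 symbol, and the Entrez identifiers of all 32 member probe sets were those of the symbols in RefSeq.

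Differences are siLnc minus siNC, and a gene is the mean over its probe sets. The 2-fold threshold is the one the study states for its other array. With 1 array per condition, no test was run. The members and lists were chosen with earlier results of these data known. Named were all members, 17 direct partners, list genes past 2-fold and QKI, and all other genes were named after their values were seen. The code for differences and 2-fold calls was checked on simulated arrays whose changes lay well past 2-fold. That check does not bear on values near the threshold. Alternatives covered cyclic loess, quantile normalization and median centring, subtraction of the median of the 500 nearest probe sets, 2 filters on dim probe sets, the brightest probe set or the median per gene, omission of cross-hybridising probe sets, and thresholds of 1.5-fold and 3-fold. Python 3.11.15, numpy 2.4.6, pandas 2.3.3, R 4.3.3 and limma 3.58.1 were used.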

Additional observations from a re-analysis of the deposited data

How the results depend on the processing

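The median log2 difference of the member genes stayed within 0.20 of 0.44 in 8 of 9 alternatives and was 0.65 over the 9 genes with a probe set above 4.17 on at least 1 array, where INCENP gave no value. TPX2 gave none without cross-hybridising probe sets. The filter at 4.17 gave a median of 0.08 over all genes. In the members, 2 probe sets passed it in siLnc alone, which favours higher differences. Of 88 gene values under alternatives, 82 stayed within 0.20 of the values given and 6, of PLK4 and PRC1, moved up to 0.65 and 0.66 to 0.78 when dim probe sets were left out or the brightest was taken. PLK1 ran from -0.03 (quantile normalization) to 0.06. The count of member genes past 2-fold, 1 as deposited, was 0 after cyclic loess, quantile normalization, subtraction of the nearest median, with the brightest probe set and at 3-fold, and 3 at 1.5-fold. ECT2 then lay between 0.89 and 0.97 in the first 4 of these. The count of member probe sets past 2-fold, 2 as deposited, was 1 after quantile normalization, 4 after median centring, 0 at 3-fold and 14 at 1.5-fold. Over all genes, 118 were 2-fold higher and 22 lower (84.3% higher), against 68 and 35 after quantile normalization (66.0%), 85 and 33 after cyclic loess (72.0%) and 84 and 33 after subtraction of the nearest median (71.8%). With dim probe sets left out, 185 or 196 were higher and 34 or 32 lower, of 11509 or 9647 genes. Both of these filters keep a probe set by its brighter array, which itself favours large differences. By the brightest probe set the counts were 200 and 49, at 1.5-fold 773 and 317, and at 3-fold 15 and 1. RACGAP1 was below 2-fold (0.94) by its brightest probe set or the median, MYH10 (0.93) without cross-hybridising probe sets, KIF2A (0.97) after quantile normalization, KIFC1 (0.98 and 0.92) after cyclic loess and quantile normalization, and MASTL (0.92, 0.87 and 0.90) after these and subtraction of the nearest median. No paired analysis was possible because each condition had 1 array, and leaving out a replicate was not possible for the same reason. Signal over background limits INCENP and the dimmer probe sets of ECT2, PLK4, PRC1, BIRC5 and PLK1. The median of the passenger complex partners was below that of the centriole genes after cyclic loess (0.178 and 0.181), quantile normalization (0.133 and 0.175) and subtraction of the nearest median (0.169 and 0.183).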
